A study of Homo sapiens with 2 samples.

Results

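Caveolae are small flask-shaped pits of the plasma membrane that are abundant in fibroblasts, endothelial cells and adipocytes. Caveolins, cholesterol-binding membrane proteins, form the wall of the pit, cavins form a coat on its cytoplasmic face, and further proteins shape or hold its neck. Caveolae take part in buffering membrane tension, in lipid traffic and in signalling, and caveolin-1 has long been studied in senescent fibroblasts. The 7 genes described here were chosen by name: the caveolin genes CAV1 and CAV2, the cavin genes PTRF (cavin-1), SDPR (cavin-2) and PRKCDBP (cavin-3), the neck ATPase gene EHD2 and the membrane-bending protein gene PACSIN2. They are 7 of 49900 named genes in the deposited table, and all 7 were measured, that is, they reached 1 FPKM (fragments per kilobase of transcript per unit of mapped fragments, a level corrected for length and depth) in 1 library or both.

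The data are total RNA sequencing of WI-38, a widely used diploid fibroblast line of human lung. The 1 young library came from proliferating cells at population doubling level 20, and the 1 senescent library came from cells taken to replicative senescence at level 52. No transgene or drug is named in the labels for either. With 1 library per group there is no spread between cultures, so no difference below has a test or a replicate check, and every value compares 2 libraries. In bulk RNA, fewer cells that express a gene and less RNA per cell cannot be told apart.

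A gene's level is the sum of the FPKM of its isoforms, and the young value is given first throughout. The log2 ratio is senescent over young after 1 FPKM was added to both, and a gene counted as higher or lower when this ratio passed 2-fold. The files give no depth. The steps of low FPKM values in unannotated single-transcript loci correspond to about 15900000 fragments for the young and 14800000 for the senescent culture. At a transcript length of 1200 bases, 1 fragment is then worth 0.0629 and 0.0676 FPKM.

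Transcripts of the caveolin genes differ in where they start, and these differences carry the isoform results. CAV1-001 and CAV1-003 encode the long and the short form of caveolin-1, known as alpha and beta, which differ at the amino terminus. In GENCODE release 29 their coding sequences hold 534 and 441 bases, so the long form has 93 bases, or 31 codons, ahead of the start codon of the short form. That stretch carries the tyrosine that Src kinase phosphorylates. The coding starts are shown from the GENCODE transcripts of the same length as those in the deposited table, with the part that both share in capitals. The start codon of CAV1-001 lies at chr7:116525063-116525065 and that of CAV1-003 at chr7:116526588-116526590, on the plus strand of GRCh38.
CAV1-001: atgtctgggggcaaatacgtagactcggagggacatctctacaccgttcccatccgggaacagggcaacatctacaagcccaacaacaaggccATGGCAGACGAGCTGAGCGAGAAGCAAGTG
CAV1-003: ATGGCAGACGAGCTGAGCGAGAAGCAAGTG

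For CAV2, the spliced sequence shows whether a transcript can encode the full protein. CAV2-001 joins exons 1 to 3 and codes over 486 bases. CAV2-019 joins exon 1 directly to exon 3, with a coding sequence of 336 bases. CAV2-002, a noncoding transcript, begins within the first intron, at 116500044 on chromosome 7 in GRCh38, and runs unspliced into exon 2. CAV2-010, also noncoding, has 7 exons and begins far upstream. Its exon 4 at chr7:116499244-116499341 is spliced to an exon at chr7:116499841-116499931, which passes over the CAV2-001 start codon at chr7:116499782-116499784 (all GRCh38, plus strand). Of its 7 exons, 3 lie within the exons of CAV2-001, this one included. Each line shows 30 bases on either side of the informative boundary, with the downstream exon in capitals.
CAV2-001: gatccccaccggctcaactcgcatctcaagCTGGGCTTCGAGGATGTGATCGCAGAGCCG
CAV2-019: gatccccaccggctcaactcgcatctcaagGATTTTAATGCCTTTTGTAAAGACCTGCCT
CAV2-002: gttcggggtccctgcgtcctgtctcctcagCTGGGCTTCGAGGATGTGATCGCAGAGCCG
CAV2-010: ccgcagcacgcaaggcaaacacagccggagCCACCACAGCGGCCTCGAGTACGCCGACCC

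Most caveola genes stood within 2-fold between young and senescent fibroblasts, with CAV2 higher and the 2 less abundant cavin genes lower by value. CAV2 was the only member past 2-fold, at 18.4 against 48.9 FPKM. Of the 7 members, 1 was higher and 0 were lower, against 6.65% of 17965 measured genes called higher and 8.58% called lower. With so few members these shares cannot be set against the background. The median log2 ratio of the members was -0.07, beside -0.10 over all measured genes, with 3 members above 0 and 4 below.

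**Figure D1:**
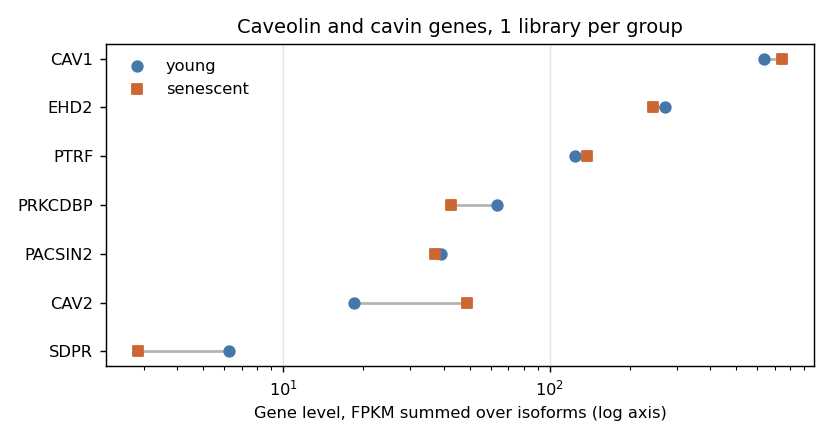
Level of each of the 7 genes in FPKM, summed over isoforms, on a log axis; circles are the young library and squares the senescent library, joined by a line, with 1 library per group and so no error bars. CAV1 lies at the top in both libraries (636 and 745 FPKM), and the widest gaps are those of CAV2 (18.4 and 48.9 FPKM) and SDPR (6.25 and 2.85 FPKM).

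The order of levels was led by the same 3 genes in both libraries. In the young library it ran CAV1, EHD2, PTRF, PRKCDBP, PACSIN2, CAV2 and SDPR. In the senescent library CAV2 stood above PRKCDBP and PACSIN2, at 48.9 against 42.7 and 37.2 FPKM, and the other places were unchanged. CAV1 ranked 98 among all measured genes of the young and 93 among those of the senescent library, whereas SDPR ranked 9038 and 11659. Without replicates it is not known which neighbours in this order differ beyond the spread between cultures.

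CAV1 encodes caveolin-1, the structural protein without which non-muscle cells form no caveolae. It lies on chromosome 7 from 116164839 to 116201233 in hg19, on the plus strand. Its summed level was 636 against 745 FPKM, log2 ratio 0.23. The direction of this small difference depended on how short transcripts were counted. The 557-base CAV1-007 was at 297 against 385 FPKM and an assembled 249-base transcript at 172 against 204 FPKM, together 73.7% of the young and 79.0% of the senescent sum. The other CAV1 transcripts summed to 167 against 156 FPKM. With only transcripts of 600 bases or more, a limit chosen after seeing the data, the log2 ratio was -0.07. FPKM divides by length, so a short transcript reaches a high value with few fragments: CAV1-007 held 28.8% and 34.7% of the gene's FPKM weighted by length.

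Among the annotated transcripts with a complete coding sequence, those of the short form of caveolin-1 summed to more than that of the long form. Most of the summed CAV1 FPKM lay in transcripts outside these sums, a share that favours short transcripts. Weighted by length, CAV1-003 alone held 51.7% of the young and 38.0% of the senescent value, the largest share in both. CAV1-003, which encodes the short form, was at 113 against 89.4 FPKM. CAV1-004, with the same 441-base coding sequence, was at 22.1 against 12.9 FPKM. CAV1-008, the third such transcript, went the other way at 7.02 against 23.8 FPKM, log2 ratio 1.63. Their sum was 142 against 126 FPKM, while CAV1-001, the transcript of the long form, was at 7.51 against 10.5 FPKM. CAV1-007, at 297 against 385 FPKM, starts its coding sequence at the same codon as CAV1-003, which is the start of the short form. Its annotated end is incomplete, so it was left out of the sum of complete coding sequences. The assembled 249-base transcript, whose nearest annotated transcript in the file is CAV1-001, was added to neither form, since its sequence is not given. At 172 against 204 FPKM this assembled transcript exceeded the sum of the complete short-form transcripts but was below CAV1-007 alone. Which form was more abundant was not tested.

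The remaining CAV1 transcripts were minor. CAV1-002, annotated as a target of nonsense-mediated decay, was at 2.67 against 8.59 FPKM, log2 ratio 1.39, and the retained-intron transcript CAV1-005 was at 14.7 against 11.3 FPKM. Of 8 CAV1 transcripts at 1 FPKM or more, 2 were at least 2-fold higher, CAV1-008 and CAV1-002, and 0 were lower. The shares over all measured transcripts were 11.6% higher and 13.1% lower. CAV1-006 was listed at 0 in both libraries. The isoforms share most of their sequence, so how fragments were divided among them is an estimate by the authors' software, and values of single isoforms are less certain than their sum.

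CAV2 encodes caveolin-2, which joins caveolin-1 in hetero-oligomers and depends on it to reach the cell surface. It lies on the plus strand of chromosome 7 in hg19, from 115927434 to 116148595, and its end is 16.2 kb before the start of CAV1. The summed level was 18.4 against 48.9 FPKM, a plain ratio of 2.66 and a log2 ratio of 1.36, higher than 96.8% of measured genes. From the estimated depth the values correspond to about 414 and 919 fragments, a ratio of 2.38 per unit of depth with an exact binomial 95% interval from 2.12 to 2.68. Such intervals cover counting error only, and the fragment numbers are estimates, since reads were not counted. The level of CAV1 was 34.6 times that of CAV2 among young and 15.2 times among senescent cells.

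All 5 CAV2 transcripts at 1 FPKM or more had a higher value in the senescent library, and 4 of them passed 2-fold. Over all 48676 measured transcripts 11.6% were higher. Isoforms of 1 gene share fragments, so the 5 are not independent. The full-length coding transcript CAV2-001 was at 4.88 against 11.9 FPKM, log2 ratio 1.14. CAV2-019, which skips exon 2, was at 0.698 against 2.99 FPKM, log2 ratio 1.23. The noncoding CAV2-002, which starts in the first intron, was at 4.82 against 17.1 FPKM, log2 ratio 1.63, and the 893-base CAV2-023, of protein-coding biotype, was at 5.999 against 8.51 FPKM, log2 ratio 0.44.

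CAV2-010 had the largest log2 ratio of the 34 measured transcripts of the 7 genes, 2.30, at 0.572 against 6.73 FPKM, a plain ratio of 11.8. It spans 218 kb in hg19, from 115928127 to 116146162, and the junction printed above leaves out the CAV2 start codon. Of the 16 annotated CAV2 transcripts that begin upstream of CAV2-001, only CAV2-010 reached 1 FPKM, 6 were above 0 in 1 library or both and 10 were listed at 0 in both. Together these upstream-start transcripts were at 1.36 against 8.05 FPKM. An alternative added after seeing the data left out these and the assembled isoforms nearest to an upstream-start transcript. CAV2 was then at 16.4 against 40.5 FPKM, log2 ratio 1.25.

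Annotated noncoding transcripts held a larger share of the summed CAV2 FPKM in the senescent library. Annotated CAV2 transcripts of biotype processed transcript summed to 6.18 against 25.1 FPKM, 33.6% of the young and 51.4% of the senescent level. Such shares favour short transcripts. Weighted by length, CAV2-002 held 12.8% and 18.7%, CAV2-010 held 1.87% and 9.10%, and the coding CAV2-001 held 54.2% and 54.8%. A 4940-base assembled transcript, nearest to a noncoding one, went the other way at 8.19% and 2.34%. Those of protein-coding biotype summed to 11.6 against 23.4 FPKM, a plain ratio of 2.03. On the pseudocount scale this sum gave a log2 ratio of 0.96, just under 2-fold. The call of CAV2 as higher thus does not hold when noncoding biotypes are left out. The sum includes CAV2-023, at a log2 ratio of 0.44, for which no coding length was available. CAV2-001 and CAV2-019, with complete coding sequences, each passed 2-fold, at 1.14 and 1.23.

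**Figure D2:**
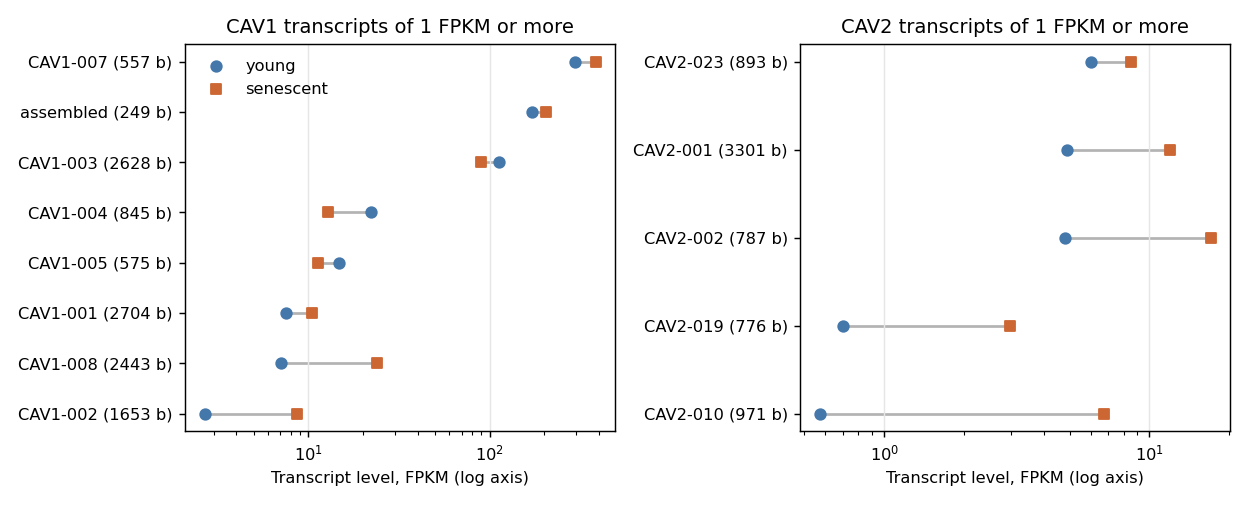
Transcripts of CAV1 (left) and CAV2 (right) that reached 1 FPKM in either library, in FPKM on log axes of different range; circles are young and squares senescent, and lengths in bases stand beside the names. The CAV1 transcripts lie on both sides, with CAV1-003 lower and CAV1-008 higher by value, while each CAV2 transcript has its square to the right, most of all CAV2-010 (0.572 and 6.73 FPKM).

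PTRF encodes cavin-1, the cavin that recruits the others and is needed for caveolae to form. It lies on chromosome 17 from 40554468 to 40575338 in hg19, on the minus strand. Its level was 124 against 138 FPKM, log2 ratio 0.15. The isoform PTRF-202 was at 66.0 against 65.1 FPKM and PTRF-201 at 58.2 against 73.3 FPKM. The most abundant caveolin and cavin stood in a similar proportion, with CAV1 at 5.12 times PTRF for young and 5.39 times for senescent cells.

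SDPR encodes cavin-2, named for its response to serum deprivation, which helps to shape the caveolar membrane. It lies on chromosome 2 from 192699028 to 192711981 in hg19, on the minus strand, with a single transcript of 3229 bases. It was the lowest member at 6.25 against 2.85 FPKM, 2.19 times higher in the young library as a plain ratio. Its log2 ratio of -0.91 fell short of the 2-fold rule on the pseudocount scale, and it was -1.10 with a pseudocount of 0.1 FPKM. The values correspond to about 301 and 128 fragments, a ratio of 0.457 with a 95% counting interval from 0.369 to 0.564. The level of PTRF was 19.9 times that of SDPR for young and 48.5 times for senescent cells.

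Other transcripts at the SDPR locus were also low. A possible pre-mRNA fragment had 1.85 FPKM among young cells and was listed at 0 among senescent cells. An assembled transcript in an SDPR intron was at 2.14 against 0.149 FPKM and another at 1.34 against 1.69 FPKM. The antisense gene AC098617.2, which overlaps SDPR, had a young level of 2.85 FPKM, and its senescent level was listed at 0. The files do not state whether reads kept their strand, so reads of SDPR and of its antisense partner may not be separated.

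PRKCDBP encodes cavin-3, which binds protein kinase C delta and takes part in caveolar vesicle traffic. It lies on chromosome 11 from 6340176 to 6341877 in hg19, on the minus strand. Its level was 63.1 against 42.7 FPKM, log2 ratio -0.56. The coding transcripts PRKCDBP-004 and PRKCDBP-001 were at 20.3 against 11.3 and 7.72 against 2.97 FPKM, and only the latter passed 2-fold, with a log2 ratio of -1.14. The retained-intron transcripts PRKCDBP-003 and PRKCDBP-002 were at 20.5 against 14.2 and 14.6 against 14.2 FPKM. Retained-intron transcripts thus held 55.6% of the young and 66.6% of the senescent summed FPKM, shares that favour short transcripts. Weighted by length, PRKCDBP-003 held 19.9% and 21.6% and PRKCDBP-002 held 24.1% and 36.5%. The coding PRKCDBP-004 held 31.3% and 27.1% and PRKCDBP-001 held 24.6% and 14.8%. By that measure the coding transcripts held the larger part of the young value and the retained-intron transcripts that of the senescent value. The coding transcripts alone gave a log2 ratio of -0.93. The level of PTRF was 1.97 times that of PRKCDBP for young and 3.24 times for senescent cells. Estimated fragments numbered about 787 and 463, a ratio of 0.632 with a 95% counting interval from 0.562 to 0.710.

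Summed over genes, the 2 caveolins were at 654 against 794 FPKM and the 3 cavins at 194 against 184 FPKM. CAV1 and PTRF dominate these sums.

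EHD2 encodes an ATPase that sits at the neck of caveolae and restrains their movement. It lies on the plus strand of chromosome 19 in hg19, from 48216601 to 48246390. Its level was 271 against 244 FPKM, log2 ratio -0.15, with a fragment ratio of 0.974 whose counting interval, from 0.942 to 1.01, includes equality. Its isoforms differed in both directions. The 1215-base EHD2-206, the highest by FPKM, was at 135 against 117 FPKM, and the 3583-base EHD2-201 was at 50.1 against 68.6 FPKM. Weighted by length, EHD2-201 held the largest share, 35.0% and 49.6%, against 31.9% and 28.8% for EHD2-206. EHD2-202 and EHD2-205 were at 44.8 against 31.9 and 20.7 against 13.7 FPKM. A 2902-base transcript without a name in the file was at 17.3 against 4.39 FPKM, log2 ratio -1.76, EHD2-203 was at 0.275 against 2.13 FPKM, log2 ratio 1.30, and an assembled isoform was at 2.89 against 5.81 FPKM.

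PACSIN2 encodes an F-BAR protein that bends membranes and is recruited to caveolae. It lies on the minus strand of chromosome 22 in hg19, from 43231418 to 43411151, where it overlaps ARFGAP3, at 27.2 against 31.4 FPKM, and the pseudogene AL049758.2, at 1.09 against 0.150 FPKM, both on the same strand. Its level was 39.0 against 37.2 FPKM, log2 ratio -0.07, a sign that turns with the median ratio and trimmed mean scalings. The fragment ratio was 0.958, with a counting interval from 0.848 to 1.08. The 622-base PACSIN2-009, whose annotated coding sequence is incomplete, was at 11.2 against 11.3 FPKM. PACSIN2-015, 362 bases long and annotated as a target of nonsense-mediated decay, was at 9.90 against 10.5 FPKM. The full-length coding PACSIN2-001 was at 6.01 against 5.003 FPKM and, weighted by length, held the largest share, 44.6% and 38.8%. PACSIN2-008 was at 5.48 against 3.56 FPKM and PACSIN2-005 at 2.06 against 2.35 FPKM. PACSIN2-004, which has the same coding length of 1458 bases as PACSIN2-001, was at 0.502 against 3.60 FPKM, log2 ratio 1.61. PACSIN2-006 had a young level of 1.12 FPKM, and its senescent level was listed at 0.

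Over the 7 genes the table holds 60 isoforms, of which 34 reached 1 FPKM and 13 were listed at 0 in both libraries. Of the 34, 8 were at least 2-fold higher (23.5%) and 3 lower (8.82%), against 11.6% and 13.1% of all 48676 measured isoforms. Of the 8, 4 belong to CAV2 and 2 to CAV1, and isoforms of 1 gene share fragments, so they are not independent. The authors' deposited table marks 3 of 42 tested isoforms of these genes as significant (7.14%), against 3.69% of all 72902 tested. In the authors' deposited table these are CAV2-010 with a q-value of 0.0323, the unnamed EHD2 transcript with 0.0694 and PACSIN2-004 with 0.0855. CAV1-008 has a q-value of 0.107 in the authors' deposited table, just above its threshold of 0.1. These q-values compare 2 libraries, not 2 conditions.

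The genes next to the members did not share a direction. On chromosome 7, MET, the hepatocyte growth factor receptor gene 111 kb beyond CAV1, was at 17.98 against 45.4 FPKM, log2 ratio 1.29, close to the ratio of CAV2. Between them lies CAV1 with its ratio of 0.23, and TES, 28.6 kb before CAV2, was at 23.8 against 31.4 FPKM, log2 ratio 0.39. The antisense gene AC006159.5, which overlaps CAV1, was at 2.37 against 1.46 FPKM. AC073130.3, an antisense gene that overlaps CAV2, was at 1.58 against 2.04 FPKM. The small nucleolar RNA gene snoZ185.1, which overlaps CAV2 on the same strand, was listed at 0 in the young library and had 4.07 FPKM in the senescent one.

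Around the cavin genes, SDPR at -0.91 had OBFC2A at 52.8 against 334 FPKM, log2 ratio 2.64, as the nearest measured gene on one side, 146 kb away, and AC098617.1 at 1.44 against 1.19 FPKM on the other. PTRF lies between STAT3 at 29.8 against 40.5 FPKM and the proton pump gene ATP6V0A1 at 16.2 against 51.7 FPKM, log2 ratio 1.62. PRKCDBP lies between FAM160A2 at 5.45 against 5.09 FPKM and the acid sphingomyelinase gene SMPD1 at 31.5 against 62.2 FPKM, log2 ratio 0.96. EHD2 has GLTSCR1 at 1.67 against 1.07 FPKM before it and GLTSCR2 after it, 2.40 kb away, at 37.7 against 12.8 FPKM, log2 ratio -1.48. Next to PACSIN2 were TTLL1 at 5.99 against 7.51 FPKM and the pseudogene AL049757.3 at 45.0 against 26.6 FPKM.

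Relatives of the members were mostly low or within 2-fold. The muscle caveolin gene CAV3 was at 0.0423 against 0.266 FPKM, below the level for a measured gene, and the muscle cavin gene MURC was at 1.38 against 1.28 FPKM. Of 4 measured EHD and PACSIN paralogs 0 were higher and 1 was lower, EHD3 at 52.2 against 19.2 FPKM, log2 ratio -1.39. Among all measured genes 6.65% were higher and 8.58% lower. EHD1, an endosomal recycling ATPase, was at 21.5 against 34.8 FPKM, EHD4 at 8.76 against 7.23 FPKM and PACSIN3 at 8.29 against 5.79 FPKM.

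Among proteins that cut or organise membrane pits, a few genes passed 2-fold. The ubiquitous dynamin gene DNM2, which encodes the GTPase that severs vesicle necks, was at 28.9 against 35.5 FPKM, while the neuronal form DNM1 was lower at 8.54 against 1.88 FPKM and DNM3 stood at 1.04 against 0.533 FPKM. Flotillins, which mark another kind of membrane domain, were at 162 against 142 FPKM for FLOT1 and 28.1 against 28.2 FPKM for FLOT2. In the same list of 5 measured genes 2 were higher and 0 lower, beside 6.65% and 8.58% of all measured genes. The 2 were STOM at 25.7 against 59.8 FPKM and STOML1 at 1.92 against 5.59 FPKM. The third stomatin relative, STOML2, was at 62.7 against 48.3 FPKM.

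Clathrin genes serve the other main route of endocytosis. Of 14 measured clathrin coat and AP2 genes 1 was higher and 0 lower, with a median log2 ratio of 0.25. The one past 2-fold was the light chain gene CLTB at 29.9 against 77.1 FPKM. Over all measured genes 6.65% were higher and 8.58% lower. The heavy chain gene CLTC was at 311 against 334 FPKM, the adaptor subunit gene AP2M1 at 295 against 488 FPKM, PICALM at 209.7 against 319.6 FPKM and CLTA at 80.3 against 96.6 FPKM.

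Of 15 BAR and F-BAR genes, the wider family of membrane-bending proteins to which PACSIN2 belongs, 3 were lower, against 8.58% of all measured genes, and 0 higher, and the median was -0.20. The 3 were the amphiphysin gene AMPH at 16.7 against 1.90 FPKM, log2 ratio -2.61, FNBP1L at 13.3 against 5.56 FPKM and GAS7 at 6.11 against 2.35 FPKM. SRGAP1 was at 54.3 against 48.4 FPKM and SH3GLB1 at 30.2 against 39.8 FPKM.

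Genes of caveola partners and regulators had a median of -0.21. Of 16 measured, 1 was higher and 1 lower, beside 6.65% and 8.58% of all measured genes. The 2 past 2-fold were protein kinase C genes: PRKCD, whose product binds cavin-3, was at 5.29 against 12.5 FPKM, and PRKCA was at 18.8 against 8.57 FPKM. FLNA, the gene of filamin A, which links caveolin-1 to actin, was at 982 against 629 FPKM, log2 ratio -0.64. ABL1, a kinase that acts on caveola anchoring to stress fibres, was at 28.9 against 15.4 FPKM and RHOA at 734 against 855 FPKM.

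Caveolae depend on membrane cholesterol, and the list of cholesterol supply genes had the highest median of the 8 lists at 0.71, over 7 genes. Of these, 2 were higher and 0 lower: NPC1 at 6.84 against 26.2 FPKM and NPC2 at 59.0 against 140 FPKM, which together export cholesterol from lysosomes. SCARB1, a lipoprotein receptor gene, was at 12.1 against 25.1 FPKM, just under 2-fold on the pseudocount scale, and the efflux pump gene ABCA1 was at 29.3 against 15.3 FPKM. Over all 65 measured genes of the 8 lists, 6 passed 2-fold upward and 6 downward (9.23% each), near the 6.65% and 8.58% of all measured genes. The median was -0.09, beside -0.10 over all measured genes.

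**Figure D3:**
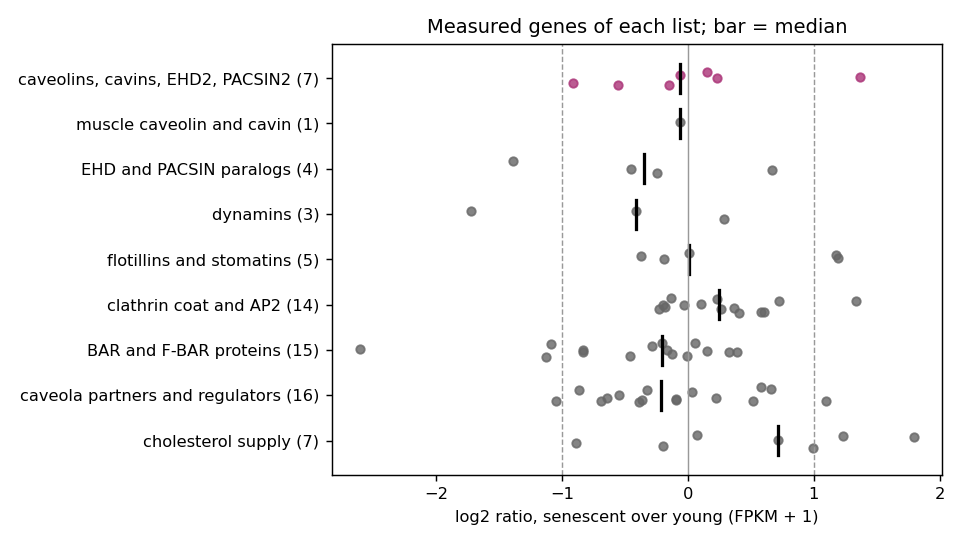
Log2 ratio of senescent over young FPKM, with 1 FPKM added to both, for each measured gene of the 7 members (top row) and of 8 lists of related genes, with the number of genes in parentheses; black bars are medians, dashed lines mark 2-fold, and the vertical scatter within a row has no meaning. CAV2 is the only point of the top row past a dashed line, and the cholesterol supply list has the highest median (0.71).

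Fibroblast markers were present in both libraries and several differed between them. Of 10, 4 were lower and 0 higher: collagen gene COL3A1 at 397 against 57.4, decorin gene DCN at 517 against 135, COL1A1 at 3994 against 1242 and COL1A2 at 1740 against 848 FPKM, while the vimentin gene VIM stood at 3477 against 3131 FPKM. Over all measured genes 8.58% were lower and 6.65% higher. The sum of the fibroblast list was 10566 against 5857 FPKM. Of 8 endothelial markers in the file 2 were measured, TEK at 18.8 against 8.16 and ROBO4 at 2.15 against 1.22 FPKM, with CDH5 and PLVAP listed at 0 in both libraries, VWF, KDR, TIE1 and CLDN5 below 1 FPKM in both, and a list sum of 21.7 against 10.4 FPKM. Of 6 adipocyte markers only FABP4, at 0.866 against 1.58 FPKM, was measured, with PLIN1 and LPL listed at 0, ADIPOQ, LEP and CIDEC below 1 FPKM in both, and a sum of 1.29 against 2.24 FPKM.

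Of 8 striated muscle markers 3 were measured, ACTA1 at 58.2 against 63.3, TNNT2 at 2.58 against 4.53 and DES at 2.08 against 0.0604 FPKM, with MYH7 and MYOG listed at 0 and a sum of 62.9 against 68.0 FPKM. Of 8 markers of epithelium and type I pneumocytes 3 were measured, KRT8 at 1.95 against 1.49, KRT18 at 2.84 against 6.75 and KRT19 at 11.5 against 1.37 FPKM, and the sum was 18.2 against 11.3 FPKM. Of 6 blood markers 3 were measured, CD163 at 53.9 against 40.3, CD74 at 2.81 against 0.752 and LYZ at 0.661 against 1.06 FPKM, with a sum of 57.9 against 42.5 FPKM and HBA1 listed at 0. The part of these markers in the values of the caveola genes was not tested.

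By distance of log2(FPKM + 1) over the 2 libraries, the 3 measured genes nearest to CAV1 were PPIA at 652 against 788 FPKM, ARF1 at 569 against 750 FPKM and TPM1 at 719 against 793 FPKM. With 2 libraries, likeness here means only a similar level in both.

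Transcripts of other classes that the file assigns to the 7 genes, which are not part of the gene sums, were few. There were 12, all at 11.8 FPKM or less. The highest was an assembled transcript in a PACSIN2 intron at 11.8 against 4.88 FPKM. Transcripts classed as possible polymerase run-on lay past the end of EHD2, at 3.98 against 5.28 and 3.79 against 6.95 FPKM. Those past CAV1, PRKCDBP and PTRF were lower in the senescent library, at 2.96 against 2.05, 4.75 against 2.96 and 0.819 against 0.176 FPKM. The authors marked the PRKCDBP one as low in data, and the PTRF one was below 1 FPKM in both libraries.

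**Figure D4:**
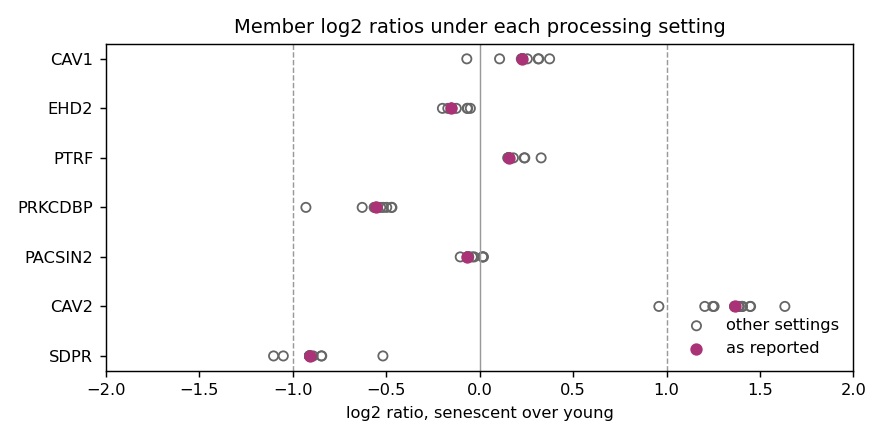
Log2 ratio of each member as reported (filled) and under the other processing settings (open circles); dashed lines mark 2-fold. CAV2 stays above 0 in every setting run, from 0.96 to 1.63, and SDPR below 0, from -1.10 to -0.52, while CAV1 and PACSIN2 cross 0.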

How the data were processed

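Total RNA from 1 young and 1 senescent WI-38 culture was depleted of ribosomal RNA and amplified, whether polyadenylated or not, by a NuGEN Ovation kit, per the labels' protocols. The submitters' processing notes list the build hg19 and, as tools, Cuffdiff, Cufflinks 2.0.2 and TopHat2 2.0.6. Their settings and the annotation are not given in the sources used here. The authors deposited 1 table of 202463 transcripts with an FPKM per library; the column named old was taken as the senescent sample. The p-values and q-values printed are the deposited ones. The deposited fold change (a ratio) was not used. The significance mark of the file goes with a q-value below 0.1 among transcripts of status OK. Transcript length and hg19 positions are those of the deposited table.

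Gene values sum the FPKM over classes complete match, possible additional isoform and contained. Ratios used a pseudocount of 1 FPKM, which understates differences of low genes; 1 library per group allows no test, so 2-fold took its place. Effective depth was the value that turned most low values of unannotated loci into whole fragments when 200 bases were taken off the length: within 0.05, 89.5% of 1140 young and 91.1% of 1661 senescent values were whole, against 10% by chance. Sequences and coding lengths come from GENCODE release 29 (GRCh38), for the 35 of 60 isoforms with the same identifier and length. Named were all members, their transcripts at 1 FPKM or more, the nearest measured gene on each side, the 3 genes nearest to CAV1 and, per list, the 3 genes of largest absolute ratio and up to 2 of highest level; other genes, such as CAV3 and genes that overlap a member, and transcripts under 1 FPKM were named after their values were seen. AC002066.1, which overlaps CAV2, was left out because 2 genes share its name. A gene of 1 list is not reported here by name. The members and lists were chosen with earlier results of these data known. Scripts used Python 3.11.15, pandas 2.3.3, NumPy 2.4.6 and SciPy 1.17.1 and were checked on simulated data.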

Additional observations from a re-analysis of the deposited data

How the results depend on the processing

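With 1 library per group, no library could be left out, and the 2-fold rule took the place of a test. No paired analysis was possible because each group holds 1 library. Besides 11 other settings, 3 were chosen after seeing the data: FPKM weighted by length, transcripts of 600 bases or more and 1 for CAV2 alone. The last left out upstream-start transcripts and the assembled isoforms nearest to them (1.25). PTRF, PRKCDBP and EHD2 kept their direction and stayed within 2-fold in all that were run for them. CAV2 ranged from 0.96 to 1.63 and fell under 2-fold only without retained-intron, decay and processed transcripts, at 0.96, which left 0 members higher. SDPR passed 2-fold with a pseudocount of 0.1 FPKM, at -1.10, and with FPKM weighted by length, at -1.05, which gave 1 member lower in each. CAV1 turned to -0.069 with transcripts of 600 bases or more. PACSIN2 turned to 0.016 with the highest isoform, 0.020 with the median ratio and 0.017 with the trimmed mean scaling; the cause was not tested. Over all measured genes the counts of 1195 higher and 1541 lower became 464 and 499 with a pseudocount of 5 FPKM, and 751 and 911 when 5 FPKM were required. A pseudocount of 0.1 FPKM gave 1672 and 2492, and transcripts of 600 bases or more gave 788 and 1114. Median ratio scaling gave 1396 higher and 1393 lower, trimmed mean scaling 1384 and 1398.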
